A study of Homo sapiens with 72 samples.

Results

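The 10 genes described here encode inhibitors that MAP kinase signalling switches on against itself: the dual-specificity phosphatases DUSP1, DUSP4, DUSP5, DUSP6, DUSP8 and DUSP10, the Sprouty proteins SPRY2 and SPRY4, and the Sprouty-related proteins SPRED1 and SPRED2. They were chosen by name as a pathway, out of 55411 genes to which transcripts in the files could be matched, and all 10 passed the filter on low counts that left 19834 genes for testing. The RNA came from PEO1 cells, a line derived from a high-grade serous carcinoma of the ovary, and every library was made from this 1 line. Cells received 8.5 µM rucaparib, a fluorescent inhibitor of PARP enzymes, or DMSO as vehicle, for 2 or 24 h. Ruc_High and Ruc_Low are the 20% of treated cells with the brightest and with the dimmest drug fluorescence, separated by flow sorting. Ruc_Total is treated cells that were not sorted, and Vehicle is cells that received DMSO and were not sorted. Each of these 4 sets was collected at both times, which gives 8 groups, each with 3 replicates and 3 libraries per replicate. Unsorted cells were scraped straight into lysis buffer, while cells for the gates were detached with an enzyme, chilled and sorted. No sorted Vehicle cells were analysed here, so that a difference between sorted and unsorted cells cannot be told apart from an effect of this handling.

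MAP kinases are switched on by phosphorylation of a threonine and a tyrosine, and the dual-specificity phosphatases remove both phosphates. DUSP1, DUSP4 and DUSP5 act in the nucleus and DUSP6 in the cytoplasm. DUSP5 and DUSP6 act mainly on ERK, DUSP8 and DUSP10 mainly on the stress kinases JNK and p38, and DUSP1 and DUSP4 on all of these. Sprouty and SPRED proteins act further up, between growth factor receptors and the RAF kinases, and SPRED1 does so by bringing the RAS inhibitor neurofibromin to the membrane. Many of these genes are themselves transcribed in response to the kinases that their products restrain, which makes them a negative feedback loop.

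A library held between 17391033 and 38899905 estimated reads (median 33431404), and the lowest count of any of the 10 genes in a replicate with its 3 libraries summed was 101 reads, for DUSP10. In the labelled cell type, the epithelial genes PAX8 (33.7 to 87.4 TPM, the share of transcript molecules corrected for length) and EPCAM (243 to 395 TPM) were present in all 24 summed samples. Medians of 0 TPM were found for DCN and LUM of fibroblasts and for PTPRC and CD3E of leukocytes. Other genes of the marker lists were present: CD68 of leukocytes (median 10.5 TPM), COL1A1 of fibroblasts (1.65 TPM) and CDH5 of endothelium (3.21 TPM). PDGFRB of fibroblasts and PECAM1 and VWF of endothelium had medians of 0.0478 TPM or less. Vehicle at 2 h replicate 1 stood apart from the other replicates of its group in DUSP1, DUSP4, DUSP5 and DUSP8, as described with the results it touches. Mean transcript length, weighted by reads, ran between 2255 and 3299 bases per library, and reads from mitochondrial genes made up 0.353% to 5.99% in the 36 sorted libraries (median 2.87%) and 0.229% to 1.94% in the 36 unsorted ones (median 0.833%). Because these are bulk samples, fewer cells with an mRNA and less of it per cell cannot be told apart.

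Compared per length of transcript and averaged over all 24 samples, of which the sorted ones weigh as much as the unsorted ones, the nuclear phosphatases were the most abundant of the 10. DUSP1 averaged 38.7 TPM over the 24 samples (lowest 10.2, highest 86.9), DUSP4 25.04 TPM (18.2 to 46.7) and DUSP5 24.3 TPM (11.1 to 51.1). SPRED1 (17.03 TPM) and SPRED2 (12.4 TPM) followed. DUSP6, the cytoplasmic ERK phosphatase, averaged 5.35 TPM, SPRY2 4.15 TPM and DUSP8 2.85 TPM. SPRY4 with 1.55 TPM and DUSP10 with 1.24 TPM were the lowest. The order differed between groups: in Vehicle at 24 h SPRED1 had the highest mean (20.02 TPM), above DUSP4 (19.3 TPM), DUSP5 (15.7 TPM) and DUSP1 (10.7 TPM). The main transcript carried 86.6% to 100% of the TPM of DUSP1, DUSP4, DUSP5, DUSP8, SPRY2 and SPRY4, 80.3% in SPRED1, 62.5% in SPRED2, 60.4% in DUSP10 and 58.97% in DUSP6. DUSP10 had 2 further transcripts over 10%, DUSP10-202 with 20.1% and DUSP10-203 with 19.5%, both annotated as targets of nonsense-mediated decay. These are shares of the TPM pooled over samples, and the median share of either transcript was 0% (highest 92.5% and 82.01%).

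The genes lie on different chromosomes except for DUSP1 and SPRY4, which are both on chromosome 5 (GRCh38, GENCODE release 29): DUSP1 from 172768090 to 172771195 and SPRY4 from 142310427 to 142326455, both on the minus strand. RefSeq promoter windows (GRCh38.p14, 250 bases before to 50 bases after a transcription start) were at hand for 8 of the 10 genes, 12 windows in all. The phosphatase genes DUSP4 and DUSP5 had no window and were not searched. They were searched on both strands for the cAMP response element TGACGTCA, the AP-1 site TGACTCA, the ETS core CCGGAAG and the CArG box of serum response factor. The first of these, whose letters cannot overlap with an AP-1 site, was found once in the window of DUSP1 and 2 times in that of DUSP8, and in no window of the other 6 genes. Over all 35116 windows of this length, 1.85% held at least 1 such element and 0.0598% held 2 or more. An AP-1 site was found only in 1 of the windows of SPRED2, against 4.95% of all windows, and neither an ETS core (10.3% of all windows) nor a CArG box (1.29%) was found in any of the 12. The 200 bases before the start of DUSP1 (chr5:172771196-172771395, minus strand) and of DUSP8 (chr11:1572272-1572471, minus strand) are shown because these are the phosphatase promoters with the element, which is in capitals:
DUSP1: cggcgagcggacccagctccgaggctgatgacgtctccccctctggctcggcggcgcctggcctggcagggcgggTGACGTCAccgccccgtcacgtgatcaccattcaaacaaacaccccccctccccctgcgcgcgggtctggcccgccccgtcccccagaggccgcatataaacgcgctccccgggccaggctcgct
DUSP8: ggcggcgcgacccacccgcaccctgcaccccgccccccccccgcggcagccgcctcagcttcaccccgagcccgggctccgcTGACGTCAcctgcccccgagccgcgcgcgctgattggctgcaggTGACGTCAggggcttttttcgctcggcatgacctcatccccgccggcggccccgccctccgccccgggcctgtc
A match of letters is a description of the window and says nothing of binding in these cells.

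The plot of levels by group gives each gene in all 24 samples, as CPM, the reads of a gene per total reads of the sample, scaled for composition. DUSP1 spanned the widest range of group means, 7.14 times between Ruc_High at 2 h and Vehicle at 24 h, and SPRED1 the narrowest, 1.23 times. In order of mean level, DUSP1 was highest in Ruc_High and Ruc_Low at 2 h, then in Ruc_Low and Ruc_High at 24 h, Vehicle at 2 h, Ruc_Total at 24 h and at 2 h, and lowest in Vehicle at 24 h. Only the last of these 7 steps had replicates that did not overlap. For 4 further genes (DUSP4, DUSP5, DUSP6 and DUSP8) the single step without overlap also led down to Vehicle at 24 h, and for SPRY2 it lay between Ruc_Total at 2 h and Ruc_Total at 24 h. DUSP10, SPRY4, SPRED1 and SPRED2 had overlapping neighbours at each of the 7 steps. The groups were ordered by these same means, and the share of all genes with such a step was not computed. The steps therefore describe the levels and show nothing particular to these genes. Over the 24 samples DUSP10 ran between 1.22 and 5.05 CPM and SPRED1 between 54.3 and 85.9 CPM.

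**Figure D1:**
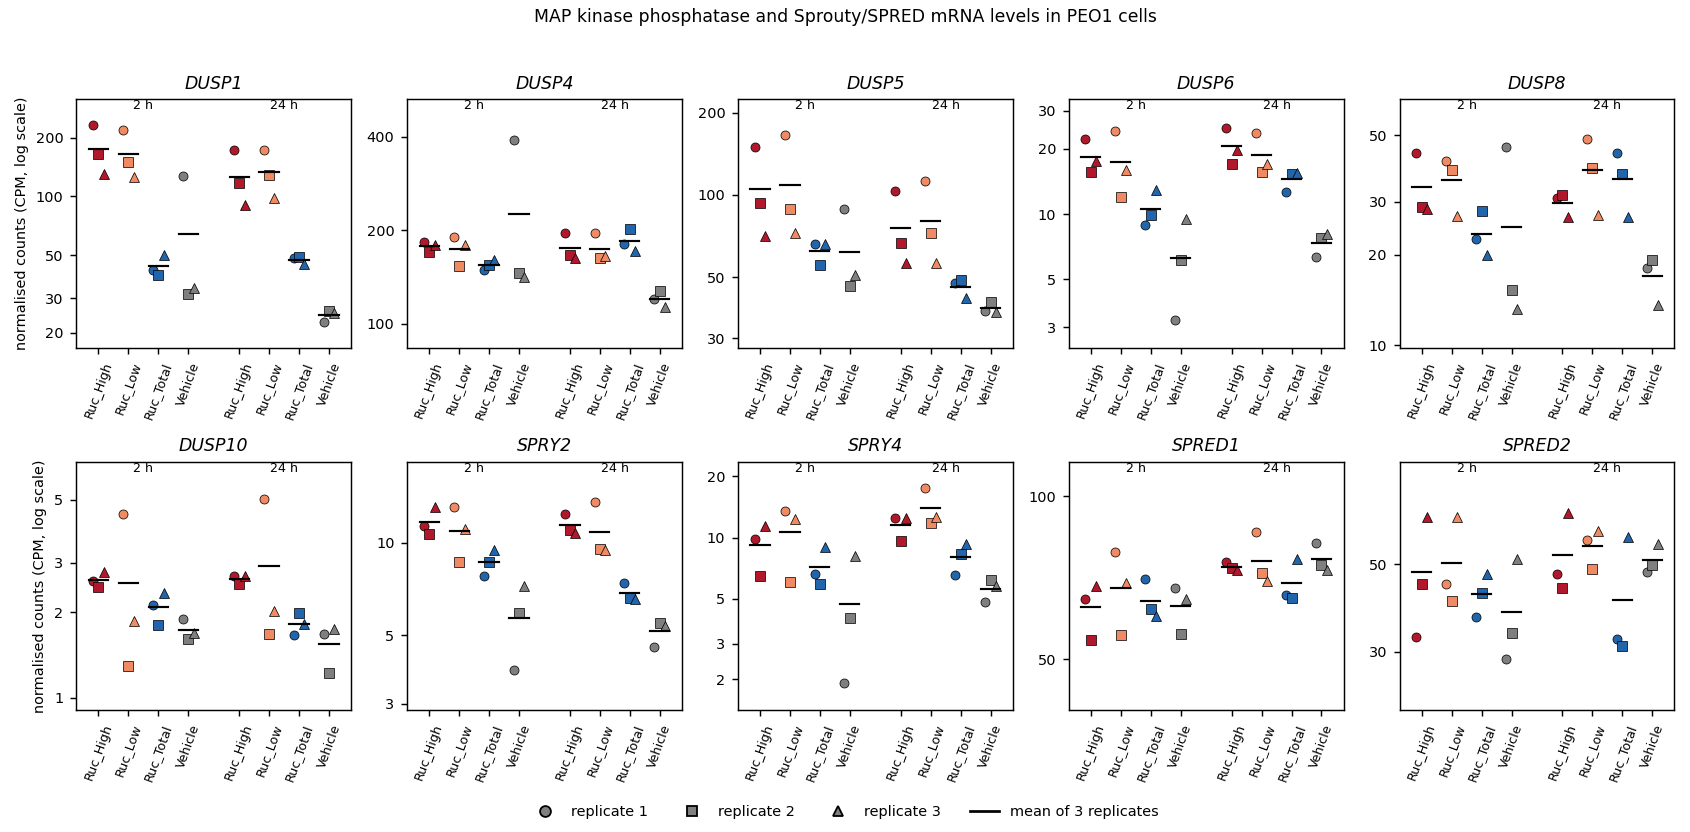
CPM (log axis) of the 10 genes in each of the 8 groups, with 1 marker per replicate and a bar for the mean of 3 replicates. DUSP1 lies between 90.0 and 232 CPM in the 12 sorted samples and between 22.6 and 49.8 CPM in the unsorted ones apart from Vehicle at 2 h replicate 1 (127 CPM).

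Cells that had been sorted were compared with Ruc_Total, all of them treated with rucaparib. DUSP1 rose at both times and SPRY2 at 24 h, and none of the 10 genes fell. The fit has groups as its only term and counts Ruc_High and Ruc_Low of a replicate as separate samples. They come from the same treated cells and are not independent. The SE and p-values of that fit do not allow for this wherever sorted cells are compared with Ruc_Total. DUSP1, an immediate-early gene that is transcribed within minutes of stress or growth factor signals, stood at 232, 164 and 129.55 CPM in Ruc_High and 219, 149 and 126 CPM in Ruc_Low after 2 h, against 41.8, 39.6 and 49.8 CPM in Ruc_Total (replicates 1 to 3). The lowest sorted sample was above the highest Ruc_Total sample. Relative to Ruc_Total, DUSP1 was 3.89 times higher (log2 fold change 1.96, SE 0.38, 95% interval 1.17 to 2.75, adjusted p = 0.0152, edgeR quasi-likelihood test). After 24 h, DUSP1 had 173, 116 and 90.0 CPM in Ruc_High and 174, 128 and 97.8 CPM in Ruc_Low, against 48.01, 48.9 and 45.1 CPM in Ruc_Total. Again no sorted sample overlapped with Ruc_Total, and the log2 fold change was 1.46 (SE 0.37, adjusted p = 0.0203). Within replicates 1, 2 and 3 the log2 differences of DUSP1 were 2.43, 1.98 and 1.36 at 2 h and 1.85, 1.32 and 1.06 at 24 h, so that its size differed between replicates while its direction did not. At 2 h DUSP1 was no longer past the threshold without replicate 2 (log2 fold change 1.97, adjusted p = 0.29) or without replicate 3 (2.26, adjusted p = 0.153), and at 24 h without replicate 2 (1.55, adjusted p = 0.39).

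SPRY2, which restrains signalling below growth factor receptors (chromosome 13, 80335976 to 80340951), had 12.4, 10.98 and 10.7 CPM in Ruc_High and 13.6, 9.56 and 9.43 CPM in Ruc_Low at 24 h, against 7.37, 6.62 and 6.56 CPM in Ruc_Total. The groups did not overlap, and the log2 fold change of 0.70 (SE 0.17, adjusted p = 0.0196) corresponds to 1.62 times. At 2 h its value was 0.39 (SE 0.17, adjusted p = 0.237), with 11.3, 10.7 and 13.04 CPM in Ruc_High and 13.01, 8.62 and 11.1 CPM in Ruc_Low, against 7.78, 8.65 and 9.43 CPM in Ruc_Total. Those samples overlapped. The call of SPRY2 at 24 h was lost when only the groups compared were fitted (0.70, adjusted p = 0.0613) and without replicate 2 (0.75, adjusted p = 0.401).

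DUSP5, the nuclear ERK phosphatase (chromosome 10, 110497838 to 110511544), was past the threshold in sorted cells at both times with the replicate number as a block in the model, but not without it. At 2 h it had 150.4, 93.3 and 70.7 CPM in Ruc_High and 165, 88.9 and 72.8 CPM in Ruc_Low, against 66.1, 55.6 and 66.3 CPM in Ruc_Total. At 24 h there were 103, 66.6 and 56.5 CPM in Ruc_High and 112, 72.5 and 56.3 CPM in Ruc_Low, against 47.7, 49.1 and 41.95 CPM in Ruc_Total. Sorted and unsorted samples of DUSP5 did not overlap at either time, with the widest gap in replicate 1. Its log2 fold change was 0.77 at 2 h (SE 0.29, adjusted p = 0.166, with the block 0.0209) and 0.75 at 24 h (SE 0.29, adjusted p = 0.107, with the block 0.0135). With the block, DUSP5 was not past the threshold at either time without replicate 1 (0.40, adjusted p = 0.0917, and 0.47, adjusted p = 0.0616) or without replicate 2 (0.69, adjusted p = 0.206, and 0.82, adjusted p = 0.144), nor at 2 h without replicate 3 (1.02, adjusted p = 0.0542). On log2(TPM + 1), with no block, DUSP5 was called at 24 h (1.09, adjusted p = 0.00935, beside 5.22% of all genes).

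The remaining 7 genes had smaller or more variable differences between sorted cells and Ruc_Total. The log2 fold change of DUSP6 was 0.76 at 2 h (adjusted p = 0.132), where DESeq2 called it along with DUSP1 (0.79, adjusted p = 0.0402, beside 8.02% of all genes). At 24 h it was 0.44 (adjusted p = 0.305), and its sorted samples (15.6 to 25.1 CPM) lay just above those of Ruc_Total (12.6 to 15.4 CPM). SPRY4 had 0.46 and 0.66, DUSP10 0.30 and 0.60 and DUSP8 0.55 and -0.09 at 2 and 24 h, none of them past the threshold. DUSP4 (0.19 and -0.07) and SPRED1 (0.02 and 0.12) were within 0.2 of no change at both times. Their 95% intervals reached 0.64 at most for DUSP4 and 0.35 for SPRED1. SPRED2 had 0.22 at 2 h and 0.42 at 24 h, and the second passed with the block (adjusted p = 0.019) but not without it (0.305). Deviations of SPRED2 from its group means went with the mean transcript length of the sample (Pearson's r 0.93 over 24 samples, a description), and the 24 h value of SPRED2 was 0.25 (adjusted p = 0.0278) with block and length in the model. With the block it was 0.34 (adjusted p = 0.176) without replicate 1 and 0.44 (adjusted p = 0.212) without replicate 2, and without replicate 3 SPRED2 was called even without the block (0.65, adjusted p = 0.014).

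In the sorted comparison, 1 of the 10 genes was called at 2 h and 2 at 24 h, where 2.24% and 9.03% of all tested genes were. With the block the counts were 2 (DUSP1, DUSP5) and 4 (DUSP1, DUSP5, SPRY2, SPRED2), beside 14.4% and 24.0% of all genes. All sorted samples were above all Ruc_Total samples for 2 of the 10 genes at 2 h (6.10% of all genes) and for 5 at 24 h (6.01% of all genes), and no gene of the 10 had all sorted samples below. The median log2 fold change of the 10 was 0.43 at 2 h and 0.52 at 24 h, against -0.01 and 0.01 over all genes. Positive values were found for 10 and 8 of the 10, against 48.5% and 50.9% of all genes. The higher share of mitochondrial reads in sorted libraries moved with this comparison, and its part in the result was not tested.

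**Figure D2:**
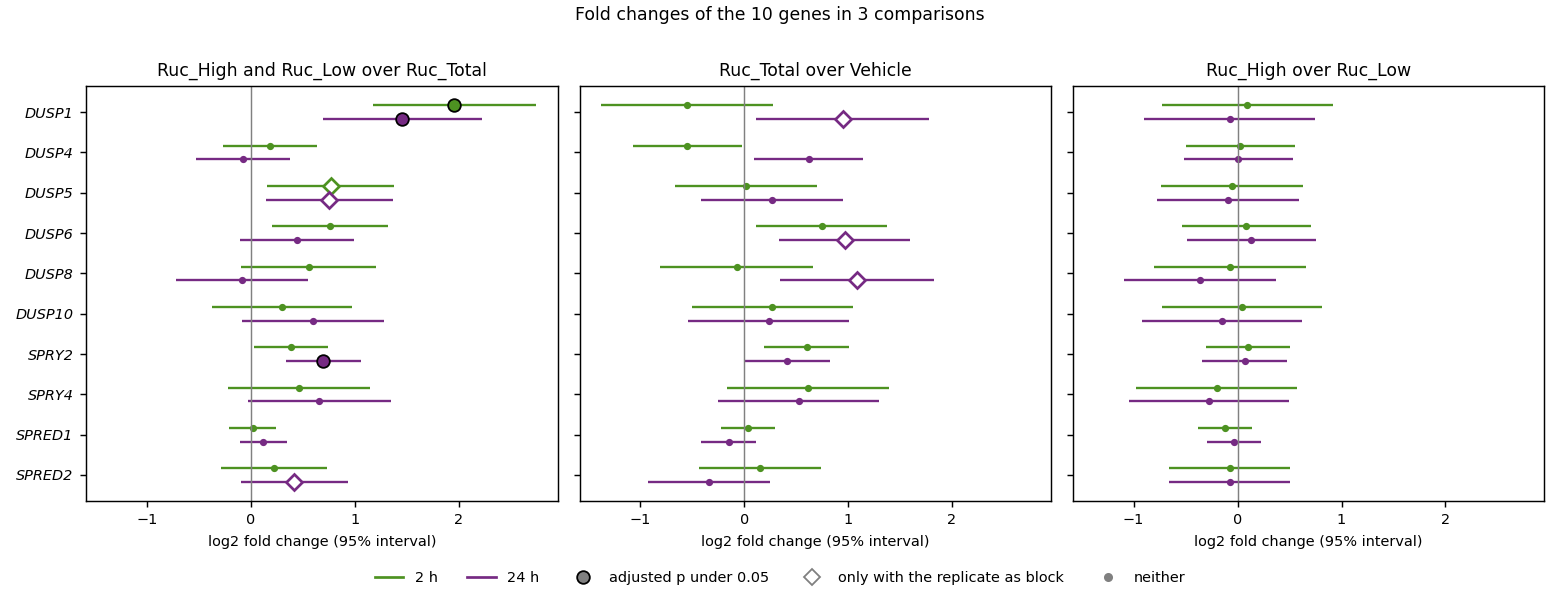
Log2 fold changes of the 10 genes with 95% intervals at 2 h and 24 h, for sorted cells over Ruc_Total, Ruc_Total over Vehicle and Ruc_High over Ruc_Low. Filled circles passed an adjusted p of 0.05, diamonds passed only with the replicate as block, and DUSP1 in sorted cells has the largest values (1.96 and 1.46).

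Ruc_Total was compared with Vehicle to see what rucaparib did in unsorted cells. At 24 h, 7 of the 10 genes had all Ruc_Total samples above all Vehicle samples, beside 13.3% of all genes, and none had them below. None of the 10 passed the threshold in the fit without the block (3.12% of all genes did). At an unadjusted p under 0.05 there were 5 (24.1% of all genes), and DESeq2 called 2, DUSP6 and DUSP8 (12.9% of all genes). With the block, DUSP1, DUSP6 and DUSP8 rose, 3 of the 10 where 23.3% of all genes were called. The fit shares its estimate of the spread over all 24 samples, and without Vehicle at 2 h replicate 1, which is not part of this comparison, DUSP1, DUSP4, DUSP6 and DUSP8 were called both without the block (6.13% of all genes) and with it (27.8%).

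DUSP8, the phosphatase of JNK and p38 (chromosome 11, 1554044 to 1571920), had 43.7, 37.1 and 26.7 CPM in Ruc_Total at 24 h, against 18.01, 19.2 and 13.6 CPM in Vehicle. Each treated replicate was above every Vehicle replicate, and the log2 fold change was 1.08 (SE 0.35, adjusted p = 0.0894, with the block 0.00783 and without Vehicle at 2 h replicate 1 0.0145). DUSP6 (chromosome 12, 89347232 to 89353271) had 12.6, 15.3 and 15.4 CPM in Ruc_Total, against 6.31, 7.78 and 8.07 CPM in Vehicle. Its differences within replicates were close to each other, 1.00, 0.98 and 0.93 on the log2 scale, with a fitted value of 0.97 (SE 0.30, adjusted p = 0.0774, with the block 0.0265, without Vehicle at 2 h replicate 1 0.0303). DUSP1 had 48.01, 48.9 and 45.1 CPM in Ruc_Total, against 22.6, 25.8 and 25.3 CPM in Vehicle. This is 1.93 times (log2 fold change 0.95, SE 0.40, adjusted p = 0.16, with the block 0.0413, without Vehicle at 2 h replicate 1 0.0347), with differences of 1.09, 0.92 and 0.83 within replicates. DUSP4 (chromosome 8, 29333064 to 29350668) had 180.3, 201 and 172 CPM in Ruc_Total, against 120.3, 127 and 113 CPM in Vehicle. These groups did not overlap either, at a log2 fold change of 0.62 (SE 0.25, adjusted p = 0.146, with the block 0.056, without Vehicle at 2 h replicate 1 0.00239). Without replicate 1 of all groups DUSP4 was called too (0.64, adjusted p = 0.0234).

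The calls that the block gave at 24 h depended on the replicates. Without replicate 2 they were lost for DUSP1 (log2 fold change 0.90, adjusted p = 0.295), DUSP6 (0.94, adjusted p = 0.289) and DUSP8 (1.09, adjusted p = 0.139), and without replicate 3 for DUSP1 (0.97, adjusted p = 0.111), DUSP6 (0.96, adjusted p = 0.09) and DUSP8 (1.08, adjusted p = 0.0535). The log2 fold change of DUSP8 was 0.38 when computed on log2(TPM + 1). With block and transcript length together the adjusted p was 0.213 for DUSP1, 0.0672 for DUSP6 and 0.0737 for DUSP8. Sample means of transcript length at 24 h were 2746, 2711 and 3229 bases in Ruc_Total, against 3120, 3107 and 3231 bases in Vehicle. Mitochondrial reads made up 0.427%, 0.371% and 0.539% in Ruc_Total at 24 h, against 1.55%, 0.989% and 0.686% in Vehicle, without overlap, and their part in these results was not tested.

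The genes other than DUSP1, DUSP4, DUSP6 and DUSP8 had smaller differences between Ruc_Total and Vehicle at 24 h. SPRY2 had 7.37, 6.62 and 6.56 CPM in Ruc_Total, against 4.57, 5.49 and 5.37 CPM in Vehicle, and SPRY4 had 6.56, 8.25 and 9.27 CPM, against 4.83, 6.16 and 5.76 CPM. Neither gene overlapped between the groups, at log2 fold changes of 0.41 (SE 0.20, adjusted p = 0.203) and 0.52 (SE 0.37, adjusted p = 0.396). DUSP5 (0.26, adjusted p = 0.648) also had no overlap, with 47.7, 49.1 and 41.95 CPM in Ruc_Total and 37.5, 40.6 and 37.3 CPM in Vehicle. DUSP10 (0.23) overlapped, as did SPRED1 (-0.15) and SPRED2 (-0.34), the 2 genes with negative values. SPRED2 was low in the replicates with short transcripts, 32.3 and 31.03 CPM in replicates 1 and 2 of Ruc_Total, while replicate 3 had 58.6 CPM, against 47.8, 49.7 and 56.5 CPM in Vehicle. Without replicate 3, SPRED2 was called as lower in Ruc_Total (log2 fold change -0.65, adjusted p = 0.0254). The median over the 10 genes was 0.47, against 0.03 over all genes, with 8 of 10 above 0, against 52.6% of all genes.

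**Figure D3:**
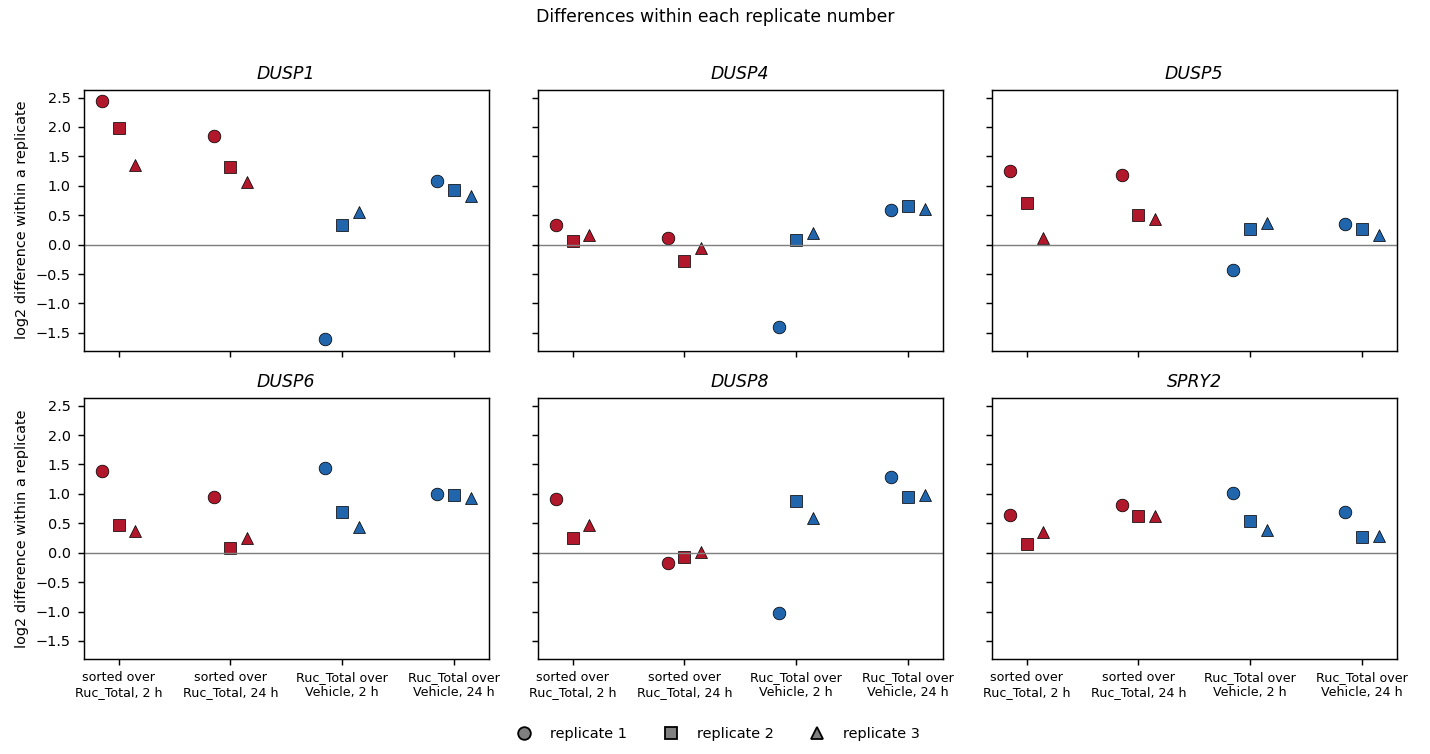
Log2 differences within each replicate number for 6 genes: the mean of Ruc_High and Ruc_Low minus Ruc_Total, and Ruc_Total minus Vehicle, at 2 h and 24 h. At 24 h the 3 replicates of Ruc_Total minus Vehicle lie within 0.93 to 1.00 for DUSP6, while at 2 h replicate 1 lies apart for DUSP1 (-1.60), DUSP4 (-1.40) and DUSP8 (-1.02).

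At 2 h, none of the 10 genes was called between Ruc_Total and Vehicle by edgeR without the block (0.0202% of all genes were), with it (0.126%) or by DESeq2 (0.713%), and 3 had an unadjusted p under 0.05 (6.59%). SPRY2 alone had all Ruc_Total samples above all Vehicle samples (3.85% of all genes), with 7.78, 8.65 and 9.43 CPM in Ruc_Total, against 3.86, 5.92 and 7.24 CPM in Vehicle (log2 fold change 0.60, SE 0.20, adjusted p = 0.508). DUSP6 had 8.88, 9.91 and 12.9 CPM in Ruc_Total, against 3.25, 6.13 and 9.48 CPM in Vehicle. Its log2 fold change was 0.75 (SE 0.30, adjusted p = 0.689).

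The 2 h comparison was set in large part by Vehicle replicate 1. DUSP1 had 41.8, 39.6 and 49.8 CPM in Ruc_Total, against 127, 31.4 and 33.97 CPM in Vehicle, and DUSP4 had 149, 154 and 161 CPM, against 391, 146 and 141 CPM. In Vehicle replicate 1, DUSP5 (88.7 CPM) and DUSP8 (45.7 CPM) were also above the other replicates of that group (46.4 and 51.2 CPM, and 15.2 and 13.2 CPM), while DUSP6, SPRY2, SPRY4 and SPRED2 were below them. All 3 libraries of that replicate shared this, with 120.1 to 133 CPM for DUSP1 and 371 to 396 CPM for DUSP4, against at most 35.7 CPM and 145 CPM in the other Vehicle libraries at 2 h. With that sample in the fit, the log2 fold changes of DUSP1, DUSP4 and DUSP8 were -0.55, -0.55 and -0.07. Without it they were 0.42, 0.11 and 0.72, none past the threshold, and those of DUSP6, SPRY2 and SPRY4 were 0.44, 0.39 and 0.24, against 0.75, 0.60 and 0.61 with it.

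Vehicle at 24 h was set against Vehicle at 2 h to see what time in culture did without drug. DUSP1 had 22.6, 25.8 and 25.3 CPM at 24 h, against 127, 31.4 and 33.97 CPM at 2 h. For DUSP4 there were 120.3, 127 and 113 CPM at 24 h, against 391, 146 and 141 CPM at 2 h. The groups of 4 genes did not overlap (18.8% of all genes), with DUSP1, DUSP4 and DUSP5 lower at 24 h and SPRED1 higher. No gene of the 10 was called by edgeR without the block (0.0303% of all genes), 4 had an unadjusted p under 0.05 (17.1%), and DESeq2 called DUSP1 and DUSP4 (1.43%). With the block, DUSP1 (log2 fold change -1.18, adjusted p = 0.0393) and DUSP4 (-0.84, adjusted p = 0.0398) fell at 24 h, 2 of 10 where 8.27% of all genes were called. Without Vehicle at 2 h replicate 1 these values were -0.52 (adjusted p = 0.213) and -0.28 (adjusted p = 0.153), and no gene of the 10 was called. With the block both genes also missed the threshold without replicate 2 (adjusted p = 0.271 each), and DUSP4 without replicate 3 (-1.04, adjusted p = 0.0569). With block and transcript length the adjusted p was 0.537 for DUSP1 and 0.573 for DUSP4.

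The difference between the effect of rucaparib at 24 h and at 2 h was tested as an interaction. None of the 10 genes passed without the block (0.116% of all genes), 3 had an unadjusted p under 0.05 (20.7%), and DESeq2 called DUSP4 (5.62%). With the block DUSP4 passed, with a log2 difference of 1.10 (adjusted p = 0.0305), beside 17.2% of all genes. Without Vehicle at 2 h replicate 1 that difference was 0.54 (adjusted p = 0.0279) with the block and 0.51 (adjusted p = 0.255) without it. Within replicates the difference of DUSP4 was 1.98, 0.58 and 0.41, in the same direction in 3 of 3. With the block it was 0.50 (adjusted p = 0.132) without replicate 1 and 1.29 (adjusted p = 0.203) without replicate 2, and with block and transcript length 1.01 (adjusted p = 0.133).

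Ruc_High was compared with Ruc_Low, which asks whether cells that hold more drug differ from cells that hold less. Both gates passed through the same detachment and sorting. No difference in any of the 10 genes was called at 2 h (0.00504% of all genes were) or at 24 h (0.106%), with the block (0.368% and 0.585%) or by DESeq2 (0.242% and 0.424%), and no gene of the 10 had an unadjusted p under 0.05 (3.22% and 4.09% of all genes). None of the 10 genes had groups without overlap at 2 h (6.31% of all genes) or at 24 h (8.77%). Log2 fold changes of the 10 ran between -0.20 for SPRY4 and 0.10 for SPRY2 at 2 h, and between -0.36 for DUSP8 and 0.13 for DUSP6 at 24 h. For DUSP1 the difference was 0.09 at 2 h (95% interval -0.73 to 0.91) and -0.08 at 24 h (-0.90 to 0.75). The intervals given here are from the fit without the block, which does not pair the gates of a replicate. In that fit a level up to 1.88 times higher in Ruc_High at 2 h could not be told from none. Within replicates 1 to 3 the log2 differences of DUSP1 were 0.08, 0.14 and 0.04 at 2 h and -0.01, -0.14 and -0.12 at 24 h. Its SE was 0.39 without the block and 0.31 with it, at both times. SPRED1 had the narrowest interval, -0.30 to 0.23 at 24 h. DUSP8 at 24 h had 30.97, 31.7 and 26.7 CPM in Ruc_High, against 48.7, 38.8 and 27.1 CPM in Ruc_Low. Here the higher value was in Ruc_Low in 3 of 3 replicates, by 0.65, 0.29 and 0.02 on the log2 scale, and the samples overlapped (95% interval of the log2 fold change -1.09 to 0.37).

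Genes also varied together among replicates of the same group. After the group means of log2 CPM had been removed, DUSP1, DUSP4, DUSP5 and DUSP8 correlated with each other at r of 0.59 to 0.87 over the 24 samples, and DUSP6, SPRY2 and SPRY4 at 0.86 to 0.91. Between these sets r was -0.57 to 0.20. These sets were picked after their values were seen, and they rest in part on Vehicle at 2 h: over the 21 samples of the other groups, r was 0.40 to 0.97 in the first set, 0.75 to 0.82 in the second and -0.13 to 0.75 between them. DUSP1 with DUSP5 was the closest of the 45 combinations then, at 0.97. The samples share replicate numbers and library properties, and the correlations are a description.

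**Figure D4:**
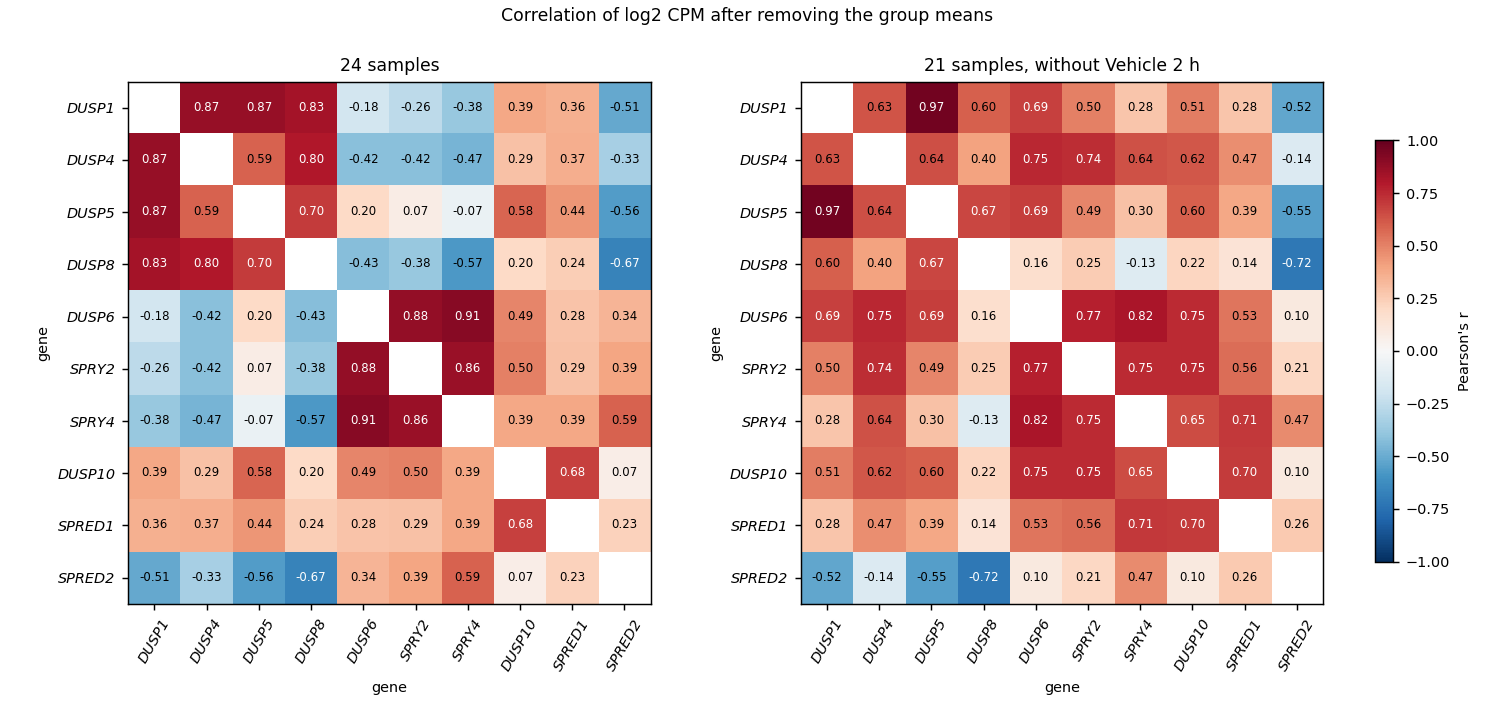
Pearson's r between genes after removing group means of log2 CPM, over 24 samples and over the 21 samples without Vehicle at 2 h. With Vehicle at 2 h the genes fall into a set of 4 (0.59 to 0.87) and a set of 3 (0.86 to 0.91) with mostly negative values between them, and without it the values between the sets are mostly positive.

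Transcript length moved with several of these deviations. Its correlation with the deviation of a gene was 0.93 for SPRED2, 0.53 for SPRY4, 0.39 for SPRY2 and 0.34 for DUSP6, and was negative for DUSP8 (-0.54), DUSP5 (-0.41), DUSP1 (-0.36) and DUSP4 (-0.27), each over 24 samples. Without Vehicle at 2 h (21 samples) the values were 0.92 for SPRED2, 0.40 for SPRY4, 0.24 for SPRY2, 0.14 for DUSP6, -0.57 for DUSP8, -0.40 for DUSP5, -0.35 for DUSP1 and -0.13 for DUSP4. The part of length in the differences between genes was not tested beyond the fits with length given above.

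Among 10763 genes with a mean of at least 5 CPM, the nearest in pattern to each of the 10 were found by Pearson's r of log2 CPM over the 24 samples. DUSP1 was nearest to CXCL2 (0.96), which encodes a chemokine, and to the immediate-early genes IER2 (0.96) and FOSB (0.93). DUSP5 was nearest to HES1 (0.93) and RHOB (0.91). For DUSP6 these were PHLDA1 (0.97), TICAM1 (0.95) and CXCL1 (0.93), and for SPRY2 JUN (0.93), PTGER4 (0.93) and PHLDA1 (0.91). SPRY4 was nearest to TICAM1 (0.93), C10orf88 (0.92) and DUSP6 itself (0.92). The nearest genes of DUSP4 (CSNK1E, 0.90), DUSP8 (ZNF408, 0.90), DUSP10 (CPEB2, 0.89), SPRED1 (ZNF827, 0.84) and SPRED2 (PATL1, 0.97) were others again.

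Other genes of these families and of the cascades were counted in the same fits. DUSP16 was also on the list of further family members, but was not found by its symbol and was not counted. Of 6 further family members (DUSP2, DUSP7, DUSP9, SPRY1, SPRY3 and SPRED3), only SPRED3 was called without the block, in sorted cells over Ruc_Total (2.24% of all genes at 2 h and 9.03% at 24 h). SPRED3, a further protein of the SPRED family, had 0.65, 0.59 and 0.57 CPM in Ruc_High and 0.70, 0.77 and 0.89 CPM in Ruc_Low at 2 h, against 0.26, 0.41 and 0.20 CPM in Ruc_Total. These low levels did not overlap, and the log2 fold changes were 1.24 at 2 h (SE 0.31, adjusted p = 0.0442) and 1.42 at 24 h (SE 0.31, adjusted p = 0.0104). With the block, DUSP2, a nuclear phosphatase of activated lymphocytes, also rose in sorted cells (1.08 at 2 h, adjusted p = 0.00409, and 0.64 at 24 h, adjusted p = 0.0333), and DUSP9 fell at 24 h (-0.52, adjusted p = 0.0463), where 14.4% and 24.0% of all genes were called. DUSP2 also rose with the block in Ruc_Total over Vehicle at 24 h (0.71, adjusted p = 0.0434), fell in Vehicle at 24 h over 2 h (-1.004, adjusted p = 0.0296) and passed in the interaction (1.33, adjusted p = 0.0178). DUSP2 was at or below 0.49 TPM on average in every group.

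Of 18 genes of the RAS-ERK cascade, SOS1, the exchange factor that loads RAS with GTP, was called in both main comparisons at 24 h. Of all genes, 3.12% were called in Ruc_Total over Vehicle and 9.03% in sorted cells over Ruc_Total. SOS1 had 6.65, 6.91 and 8.36 CPM in Ruc_Total, against 13.7, 17.9 and 13.98 CPM in Vehicle, a fall of 1.06 on the log2 scale (log2 fold change -1.06, SE 0.23, adjusted p = 0.0199). In sorted cells SOS1 was higher than in Ruc_Total, with 13.4, 12.6 and 16.4 CPM in Ruc_High and 14.7, 16.2 and 13.6 CPM in Ruc_Low (0.99, SE 0.21, adjusted p = 0.00861). These comparisons share the Ruc_Total samples. GRB2, the adaptor that carries SOS1 to receptors, fell in sorted cells at 24 h (-0.39, SE 0.11, adjusted p = 0.0406). With the block, 1 gene of the 18 rose and 7 fell in Ruc_Total over Vehicle at 24 h, and 4 rose and 3 fell in sorted cells over Ruc_Total. These are counts of 8 and 7 of 18, beside 23.3% and 24.0% of all genes. HRAS rose in the first of these (0.59, adjusted p = 0.0182) and fell in the second (-0.47, adjusted p = 0.0216), both with the block.

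Of 15 genes of the JNK and p38 cascades, MAPK13, a p38 kinase, was the only one called without the block. It was lower in sorted cells than in Ruc_Total at 24 h (-0.29, SE 0.08, adjusted p = 0.0259), where 9.03% of all genes were called. With the block 3 rose and 2 fell in Ruc_Total over Vehicle at 24 h, 5 of 15 where 23.3% of all genes were called. Among them MAPK11, another p38 kinase, rose (1.02, adjusted p = 0.00751) and MAP2K6, an activator of p38, fell (-0.84, adjusted p = 0.000667).

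Of 12 genes known as outputs of ERK signalling, 3 rose in Ruc_Total over Vehicle at 24 h and none fell (3.12% of all genes were called), and with the block 8 rose and 1 fell (23.3% of all genes). PLAUR, the urokinase receptor, had 132, 136 and 95.1 CPM in Ruc_Total, against 52.3, 59.5 and 56.3 CPM in Vehicle (1.11, SE 0.19, adjusted p = 0.00435). PHLDA1 had 50.4, 68.02 and 59.4 CPM, against 24.04, 29.8 and 32.2 CPM (1.05, SE 0.26, adjusted p = 0.0369), and LIF, a cytokine, had 100.2, 92.5 and 92.4 CPM, against 69.03, 66.5 and 56.5 CPM (0.57, SE 0.13, adjusted p = 0.0277). None of these groups overlapped. In sorted cells over Ruc_Total, LIF rose at both times (0.51, adjusted p = 0.0291, and 0.43, adjusted p = 0.0282) and PLAUR fell at 24 h (-0.53, adjusted p = 0.0401). Of all genes, 2.24% were called there at 2 h and 9.03% at 24 h. Medians over the 12 genes in Ruc_Total over Vehicle were 0.19 at 2 h and 0.40 at 24 h, against 0.01 and 0.03 over all genes, and no gene of the 12 was called at 2 h or between Ruc_High and Ruc_Low by edgeR without or with the block.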

How the data were processed

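Poly(A) RNA of 72 libraries was measured. The authors deposited 1 file per library with expected counts and TPM per transcript from Salmon, whose version is not given in the sources used here. Further tools in the processing notes of the submitters are DESeq2 1.44.0 and cutadapt 4.7, and the build is GRCh38. Of 257369 transcripts per file, 194437 were matched to genes by GENCODE release 29. The others took 9.65% to 11.7% of a library's reads and were left out. Conditions and replicate numbers come from the labels. Libraries of 1 replicate number were treated as technical repeats, summed and rounded to whole counts, since the reporting summary of the study gives 3 biological replicates on different days for sorting experiments in general.

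The 24 samples were fitted together with edgeR 4.0.16 in R 4.3.3 (filterByExpr, TMM scaling, quasi-likelihood test, Benjamini-Hochberg adjustment over 19834 genes, threshold 0.05), with groups as the only term. CPM are TMM-scaled. Ruc_High and Ruc_Low of a replicate come from the same treated cells. Alternatives were the replicate number as a block, DESeq2 1.42.0 and its size factors, limma 3.58.1 on log2(TPM + 1), other filters, transcript length as a covariate, and samples left out. The labels do not say that the replicate numbers of these libraries are days. Deviations from group means correlated with a median of 0.24 between same-numbered samples (84 combinations) and -0.11 between others (168 combinations). In the fit of all 24 samples, adjusted p-values rest on a spread estimated jointly over all groups, with 3 samples a group. Members and lists were chosen with earlier results of these data known. All 10 members are named, and other genes of the lists were named from the up to 3 called ones with the largest change in each list, comparison and direction. The fits were run on simulated counts with the same spread for every gene and no sample that stood apart. The gates of a replicate shared nothing in them beyond the replicate number. That simulation therefore gives no error rates for these samples. Promoter sequences are from RefSeq.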

Additional observations from a re-analysis of the deposited data

Results flagged for a closer look

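Among the 9 libraries of a group, 3 values stood far from the nearest of the others, of 80 sets of libraries tested over the 10 genes and 8 groups. The cut-off gives about 1 in 20 by chance for 9 independent values, and the 3 are not above that rate. The rate does not hold here, since the libraries are 3 repeats of each of 3 replicates. A replicate whose 3 libraries all stand apart, such as Vehicle at 2 h replicate 1, is not flagged in this way. DUSP8 was at 74.6 CPM in 1 library of Ruc_Low at 2 h (replicate 2, library 2), with the next at 43.8 CPM. That library had the fewest reads of all (17391033), the most genes detected (31523) and a mean transcript length of 2351 bases. DUSP8 was also highest in 1 library of Ruc_High at 2 h (replicate 1, library 2), with 56.7 CPM and the next at 38.1 CPM. The same library had the highest DUSP4 of its group, 198.8 CPM, with the next at 182.55 CPM. The effect of rucaparib on DUSP4 differed between 24 h and 2 h by 1.10 on the log2 scale in the interaction test with the replicate block (adjusted p = 0.0305), and by 0.54 without Vehicle at 2 h replicate 1.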

How the results depend on the processing

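No log2 fold change among 204 alternative values of the genes called with or without the block changed sign. Of these values, 160 stayed on their side of the threshold, 36 gained the call and 8 lost it. All 8 losses fell on calls of the fit without the block, in sorted cells over Ruc_Total. Of 17 alternatives each, DUSP1 lost its call in 3 at 2 h and in 2 at 24 h, and SPRY2 in 3 at 24 h. The other results were not called in that fit, so that their values that stayed are values still not called. The 160 therefore do not measure how stable the calls were. With 3 replicates, calls turned on single samples, and no alternative called a gene of the 10 between Ruc_High and Ruc_Low or between Ruc_Total and Vehicle at 2 h. The causes of the shifts below were not tested.

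With the replicate block the number of the 10 genes called was 3 for Ruc_Total over Vehicle at 24 h, 2 for sorted cells over Ruc_Total at 2 h and 4 at 24 h, 2 for Vehicle over time and 1 for the interaction, where the fit without it gave 0, 1, 2, 0 and 0. The block changed no other call among the 10 genes. DESeq2 gave 2, 2, 2, 2 and 1. Over all genes it called 2018 of 15585, 1311 of 16351, 2926 of 17884, 240 of 16732 and 854 of 15203. Block and transcript length together gave 0, 2, 4, 0 and 0, and fitting only the groups compared gave 1 for sorted cells over Ruc_Total at 24 h. Block and length called 1108, 4593 and 3489 of 19834 genes in the first 3 of these comparisons. Fitting only the groups compared called 208 of 18653 genes for sorted cells over Ruc_Total at 24 h. Leaving out 1 replicate number at a time gave 0 to 4 for Ruc_Total over Vehicle at 24 h, 0 to 1 for sorted cells over Ruc_Total at 2 h and 0 to 4 at 24 h, 0 to 2 for Vehicle over time and 0 to 3 for the interaction, with or without the block. Over all genes these fits called 3 to 4446, 2 to 1412 and 5 to 4490 genes in the first 3 of these comparisons. For Vehicle over time and the interaction, the numbers over all genes in these fits are not given here. With all replicates and the block, 8.27% and 17.2% of all genes were called there. The counts of the 10 genes in those 2 comparisons therefore show nothing particular to them. Without Vehicle at 2 h replicate 1, an alternative chosen after the data were seen, 4 genes were called for Ruc_Total over Vehicle at 24 h with or without the block, and with the block 4 and 5 in sorted cells over Ruc_Total at 2 h and 24 h, 0 for Vehicle over time and 1 for the interaction. Of all 20375 genes, 5659 (with the block) and 1250 (without it) were then called for Ruc_Total over Vehicle at 24 h. In sorted cells 3577 and 5592 were called with the block at 2 h and 24 h. The number over all genes for the interaction without that sample is not given here.

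Over all genes, the block moved the number called in each comparison by more than 1.5 times: with it, 25 and 4628 genes were called for Ruc_Total over Vehicle at 2 h and 24 h (4 and 619 without it), 73 and 116 for Ruc_High over Ruc_Low (1 and 21), 2852 and 4755 for sorted cells over Ruc_Total (444 and 1792), 1640 for Vehicle over time (6) and 3420 for the interaction (23).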

Other observations

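Transcripts of DUSP6 differed in their shares between groups. DUSP6-202 held 3.49% to 12% of the TPM of DUSP6 in the 3 replicates of Ruc_Total at 24 h, against 18.2% to 25.8% in Vehicle at 24 h, and 25.8% to 26.2% in Ruc_Low and 21.7% to 30.8% in Ruc_High at that time. At 2 h the share was 8.96% to 17.2% in Ruc_Total, against 0% to 20.9% in Vehicle. This transcript was singled out after its values were seen and was not tested, and its share is an estimate by Salmon among 5 transcripts of a gene with few reads.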
